A study of Mus musculus with 14 samples.

Results

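Clock output genes carry the rhythm of the circadian clock to the rest of the cell. Of 18193 genes with a probe set (a group of probes that measure 1 transcript) annotated with 1 gene symbol, 9 were followed here: Dbp, Tef, Hlf, Nfil3, Ciart, Usp2, Bhlhe40, Bhlhe41 and Rora. They had 23 of the 45101 probe sets, and all 9 passed a filter on low signal. The genes were chosen by their roles in the clock, but with the signals of the CD151KO and wild type arrays already known, in which several were low in lungs without CD151. Their values in the comparison of CD151KO against wild type are therefore given as a description, with no p-value, and the counts of calls there support nothing.

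Affymetrix arrays, 1 per sample, measured total RNA of the whole lung in C57BL/6 mice at 20 weeks of age. Mice lacking the tetraspanin CD151 (CD151KO) gave 5 samples, mice lacking the tetraspanin CD9 (CD9KO) gave 5, and wild type mice gave 4, numbered 1, 3, 4 and 5. Tetraspanins are membrane proteins that organise other membrane proteins, integrins among them. The deleted part of each gene, the cells it was deleted in and the hour of lung collection were not stated in those sources that were used here. The part of that hour in any difference below was not tested. Nothing in the labels ties each sample to its own animal, so the p-values reflect the spread of these samples alone, some of which could be technical.

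The values are normalized signals on a linear scale, from 4.785 to 29667, with array medians of 84.07 to 86.19. All 7 lung epithelial markers passed the filter. Sftpc, a surfactant protein gene, was among the brightest, at 28913 ± 219 in CD151KO, 28522 ± 194 in CD9KO (SD, n = 5 each) and 28656 ± 142 in wild type (n = 4), near the top of the scale. Of the 7 markers 1 passed in CD151KO against CD9KO, where 10.1% of all genes passed. This was Epcam, an epithelial adhesion gene, higher in CD151KO (1905 ± 112) than in CD9KO (1653.5 ± 65.4, limma adjusted p = 0.0087). There 3 of the 7 had an unadjusted p under 0.05, and their median log2 difference was 0.02. Cd151 measured 1027 to 1072 in CD151KO, against 4991 to 5833 in wild type, and Cd9 measured 614 to 749 in CD9KO, against 7998.5 to 8163 in wild type. Array number 1 of CD151KO and array number 1 of wild type stood apart from the rest on principal component 1 (-17.2 and -18.5, the other 12 from -8.01 to 13.4). The 5 CD9KO arrays, at 7.23 to 13.4, lay above all others (highest 2.46) on this component, which held 37.5% of the variance. The part of this in the comparisons with CD9KO was not tested. BioB, a bacterial RNA added as a hybridization control, gave 363 to 424 in CD151KO and 361 to 444 in CD9KO, above the 314 to 354 of wild type, and what part this had in differences from wild type was not tested. In whole tissue, fewer cells of a type and less RNA per cell cannot be told apart.

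In the mammalian clock, the activators CLOCK and BMAL1 (the product of Arntl) bind DNA at E-boxes and switch on their own repressors, the Per and Cry genes. They also switch on output genes. DBP, TEF and HLF are the PAR bZIP factors, which activate genes through a DNA element called the D-box, and NFIL3 represses through the same element. CIART (CHRONO) and the products of Bhlhe40 and Bhlhe41 (DEC factors) repress at E-boxes. RORA activates Arntl through the ROR element, where the REV-ERB receptors (Nr1d1 and Nr1d2) repress it. USP2 is a deubiquitinase with a rhythmic transcript in many mouse tissues.

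The 250 bases before the annotated starts were read from RefSeq (assembly GRCm38.p6) for 8 of the 9 genes, all but Bhlhe40. The letters CACGTG, the E-box (the same on both strands), were found in 4 of the 9 windows of these genes, against 6.02% of all 32851 windows in the table. The 9 windows were richer in G and C (60.4% to 81.6%) than all windows (median 52.4%), and the shares were not matched for this. Ciart held 3, at 116, 58 and 44 bases before the start, both windows of Tef held 1, and so did that of Bhlhe41. The windows of Dbp, Hlf, Nfil3, Usp2 and Rora held none. The D-box TTATGTAA (TTACATAA on the other strand) was in 0 of the 9 and in 0.819% of all windows, the form TTACGTAA in 0 and in 0.113%, and the E-box variant CACGTT, searched on both strands, in 0 and in 3.85%. The letters TAGGTCA, which end a ROR element and read TGACCTA on the other strand, were in the window of Nfil3 alone among the 9 and in 2.23% of all windows. No 2 of the motifs found overlapped, and a match describes the letters only. The windows shown are the 4 with an E-box, that of Nfil3 and that of Dbp, the PAR bZIP gene with the largest difference of CD151KO from wild type. Capitals mark CACGTG, or TGACCTA in Nfil3.
Ciart, chr3:95882229-95882478, minus strand: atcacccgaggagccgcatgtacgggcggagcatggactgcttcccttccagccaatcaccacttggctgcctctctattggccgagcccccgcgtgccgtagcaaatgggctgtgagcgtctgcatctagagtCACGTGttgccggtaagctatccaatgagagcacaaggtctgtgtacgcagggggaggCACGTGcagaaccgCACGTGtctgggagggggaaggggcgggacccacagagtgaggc
Tef, chr15:81802423-81802672, plus strand: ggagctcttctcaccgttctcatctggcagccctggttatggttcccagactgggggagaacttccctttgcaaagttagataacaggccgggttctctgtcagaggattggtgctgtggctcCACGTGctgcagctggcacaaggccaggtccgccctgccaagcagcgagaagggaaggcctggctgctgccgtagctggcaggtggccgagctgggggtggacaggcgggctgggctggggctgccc
Tef, second start, chr15:81811164-81811413, plus strand: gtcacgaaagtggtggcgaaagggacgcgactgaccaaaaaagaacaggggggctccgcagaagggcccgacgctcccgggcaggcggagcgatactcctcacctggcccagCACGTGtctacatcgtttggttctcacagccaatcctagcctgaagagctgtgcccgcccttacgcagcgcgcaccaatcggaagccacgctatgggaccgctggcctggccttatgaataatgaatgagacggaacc
Bhlhe41, chr6:145865421-145865670, minus strand: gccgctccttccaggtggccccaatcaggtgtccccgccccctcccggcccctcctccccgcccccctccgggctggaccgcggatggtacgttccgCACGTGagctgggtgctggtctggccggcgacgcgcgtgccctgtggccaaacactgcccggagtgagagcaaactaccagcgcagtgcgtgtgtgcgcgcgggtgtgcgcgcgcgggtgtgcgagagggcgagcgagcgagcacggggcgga
Nfil3, chr13:52981040-52981289, minus strand: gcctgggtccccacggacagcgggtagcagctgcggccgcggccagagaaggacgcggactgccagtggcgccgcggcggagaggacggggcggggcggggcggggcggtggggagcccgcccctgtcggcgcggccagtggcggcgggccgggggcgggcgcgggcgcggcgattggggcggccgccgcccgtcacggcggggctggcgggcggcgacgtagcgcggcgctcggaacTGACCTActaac
Dbp, chr7:45704997-45705246, plus strand: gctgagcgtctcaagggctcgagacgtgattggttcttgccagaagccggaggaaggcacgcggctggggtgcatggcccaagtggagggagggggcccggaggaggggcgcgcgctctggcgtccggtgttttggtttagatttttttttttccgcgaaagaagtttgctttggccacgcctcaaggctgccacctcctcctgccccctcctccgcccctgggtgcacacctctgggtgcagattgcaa

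In lungs without CD151 the 3 PAR bZIP genes, Ciart and Usp2 were lower than in wild type on every array, by 1.36-fold to 1.81-fold. Of all genes, 1.69% lay wholly below wild type there. Nfil3, the repressor at the same DNA element, was higher on average, and Bhlhe40, Bhlhe41 and Rora overlapped with wild type. In lungs without CD9 none of the 9 passed the test against wild type, where 5.51% of all genes passed. Where a gene has several probe sets, the one with the highest mean over the 14 arrays represents it. Differences are given as log2(signal + 16), a scale on which the change of a dim gene comes out too small.

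**Figure D1:**
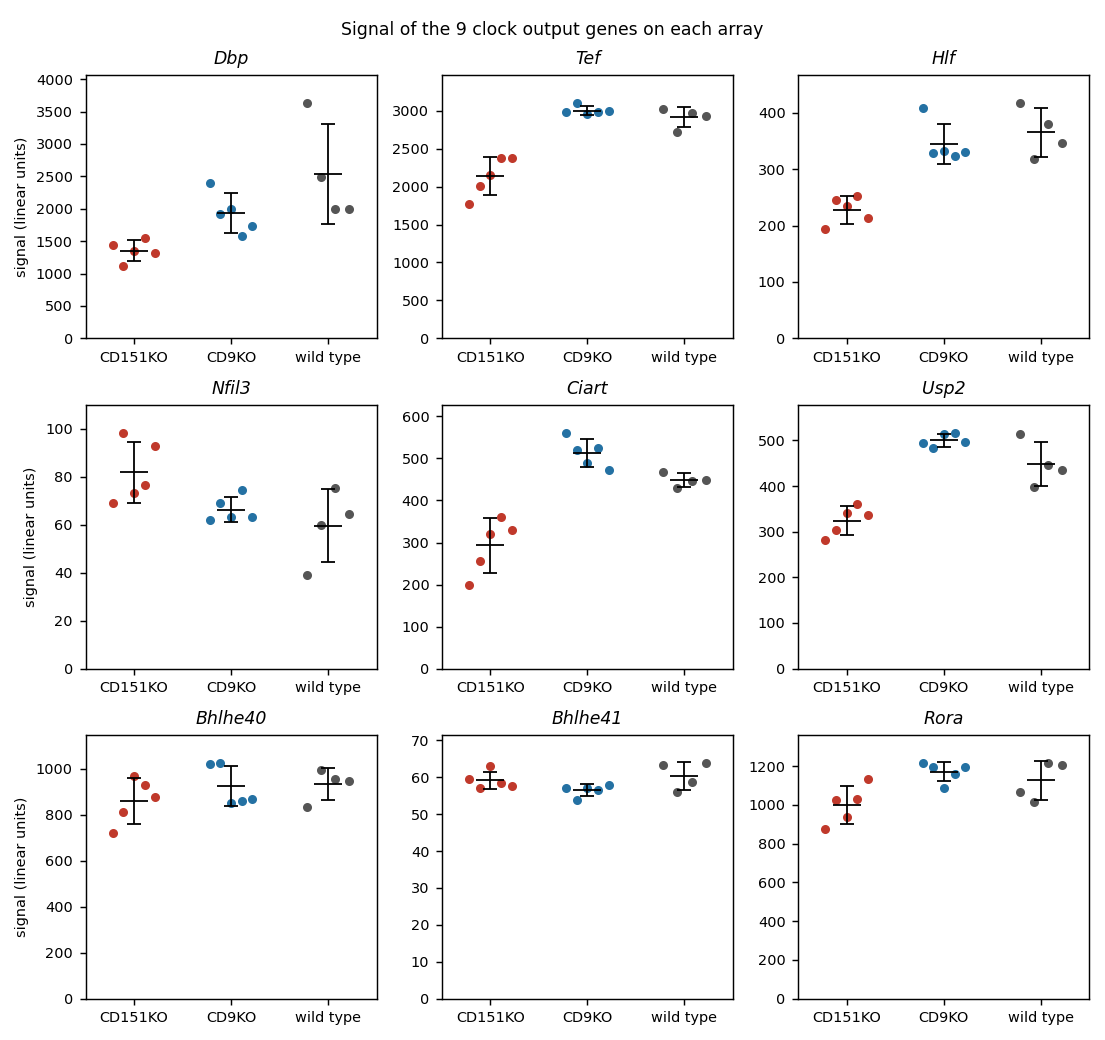
Signal of the representative probe set of each gene (linear units, each vertical axis from 0) on every array of CD151KO (n = 5), CD9KO (n = 5) and wild type (n = 4). Points are arrays in the order of their numbers, and bars are the mean and SD. Dbp, Tef, Hlf, Ciart and Usp2 are lower on all 5 CD151KO arrays than on any wild type array.

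Dbp, the PAR bZIP factor first found as a binder of the albumin promoter in liver, had signals of 1435, 1123, 1351, 1551 and 1311 on CD151KO arrays 1 to 5. On CD9KO arrays 1 to 5 it had 2399, 1923, 1997, 1582 and 1739.5, and on wild type arrays 1, 3, 4 and 5 it had 3636, 2486, 2001 and 1997. CD151KO lay below both other groups with no overlap, CD9KO overlapped with wild type, and wild type array 1 was the highest of the 14. The log2 difference of CD151KO from wild type was -0.86 (SE 0.16), and -0.69 without the number 1 arrays of both groups. A second probe set of Dbp differed by -0.80, and on it CD151KO (875 to 1214) overlapped with CD9KO (1083 to 1777).

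Tef, the thyrotroph embryonic factor, had 1776, 2012, 2155, 2374 and 2372 on CD151KO arrays 1 to 5. The CD9KO arrays had 2977, 3104, 2957, 2980.2 and 2993, and the wild type arrays 3028, 2721, 2975 and 2936. CD151KO lay below both groups, with array 1 lowest, and the difference from wild type was -0.45 (SE 0.07). The other probe sets of Tef did not behave alike. A second probe set had 284 to 326 on 3 CD151KO arrays and 248 and 267 on the others, and in CD9KO it was split, with 421 and 422 on arrays 1 and 2 and 248, 231 and 228 on arrays 3, 4 and 5, while wild type had 420 to 493. The third probe set had 94.4 to 104 in CD151KO, 108 to 131 in CD9KO and 103 to 113 in wild type.

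**Figure D2:**
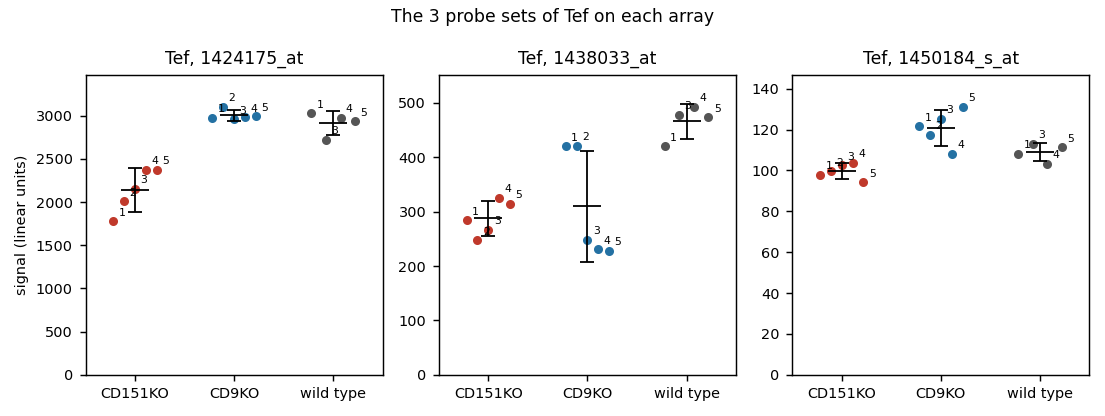
Signal (linear units, axes from 0) of the 3 probe sets of Tef in CD151KO, CD9KO and wild type, with each array's number beside its point and the mean and SD as bars. In the middle panel CD9KO arrays 3, 4 and 5 (228 to 248) lie apart from CD9KO arrays 1 and 2 (421 and 422).

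Hlf, the hepatic leukemia factor, had 193, 245.5, 234, 253 and 213 on CD151KO arrays 1 to 5. It had 409, 329.6, 332, 323.5 and 330.5 on the CD9KO arrays and 418, 318, 380.1 and 346 on the wild type arrays. Again every CD151KO array was below every other array. The difference from wild type was -0.64 (SE 0.09), and a second probe set gave -0.69. Nfil3 ran the other way with more overlap, at 68.8, 98.2, 73.2, 76.3 and 92.5 in CD151KO, 61.85, 69.0, 63.1, 74.2 and 63.2 in CD9KO and 39.1, 59.6, 75.3 and 64.3 in wild type. Wild type array 1, where Dbp was highest, had the lowest Nfil3 of all 14. The difference of CD151KO from wild type was 0.39 (SE 0.12), and 0.24 without wild type array 1. These signals are close to the filter, which was set at a signal of 53.4.

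Ciart, whose product binds BMAL1 and represses it, had 199, 257, 321, 360.0 and 330.1 on CD151KO arrays 1 to 5. CD9KO arrays had 560.6, 519, 490.2, 525 and 472, and wild type arrays 469, 430.2, 447 and 448. The 3 groups did not overlap, CD151KO being lowest and CD9KO highest, and the difference of CD151KO from wild type was -0.61 (SE 0.12). Usp2 had 282, 303, 340, 359.85 and 337 in CD151KO, 494, 482, 514, 516 and 496 in CD9KO and 515, 397, 447 and 436 in wild type. CD151KO was below both groups, by -0.45 (SE 0.07) from wild type, and a second probe set gave -0.31.

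The DEC genes and Rora differed less. Bhlhe40 measured 719 to 970.03 in CD151KO (median 877), 853 to 1024 in CD9KO (median 867) and 834 to 993 in wild type (median 952), and Bhlhe41 57.04 to 63.0, 53.8 to 57.9 and 55.9 to 63.8, so that all groups overlapped. Rora had 873, 1025, 939, 1029.7 and 1131 on CD151KO arrays, 1214.5, 1196, 1088, 1160.5 and 1196 on CD9KO arrays and 1067, 1015.5, 1213 and 1206 on wild type arrays. The lowest arrays were of CD151KO, but the groups overlapped, with a difference from wild type of -0.17 (SE 0.07). Of the 9 probe sets of Rora, 7 passed the filter, and those 7 differed from wild type by -0.10 to -0.27 in CD151KO.

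In the fit across 12985 genes, 5 of the 9 genes passed in CD151KO against wild type (Dbp, Tef, Hlf, Ciart and Usp2), all 5 lower, where 0.778% of all genes passed in either direction and 0.323% were lower. These 5 also did not overlap with wild type, where 1.69% of all genes lay wholly below it. Since the genes were chosen with this comparison known, nothing is read from these counts. The median log2 difference of the 9 was -0.45, beside 0.01 for all genes. The count was also 5 without the number 1 arrays of CD151KO and wild type. It was 3 without wild type array 3 or without CD151KO array 5, and 1, Hlf, with only these groups in the fit.

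**Figure D3:**
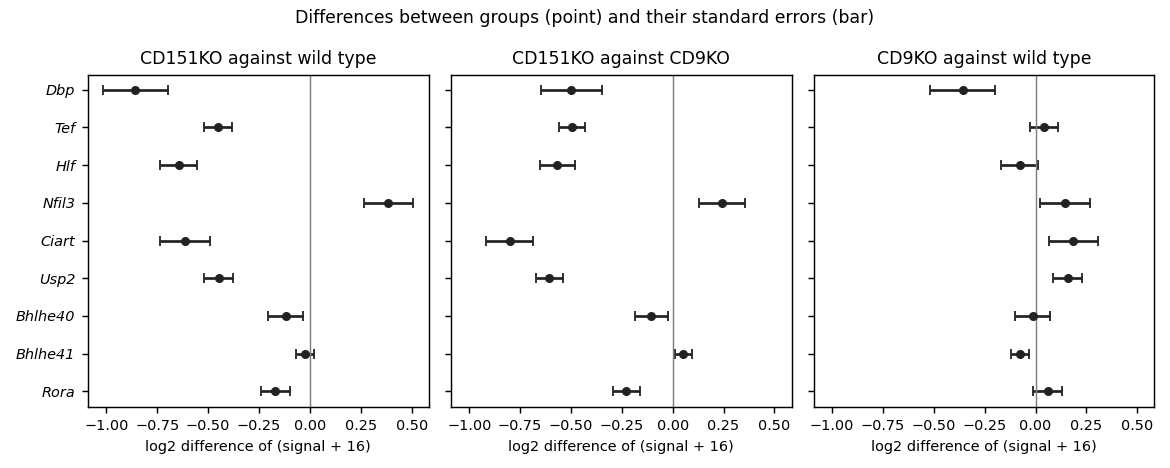
Log2 difference of (signal + 16), with its standard error as a bar, for each gene in CD151KO against wild type, CD151KO against CD9KO and CD9KO against wild type. Dbp, Tef, Hlf, Ciart and Usp2 lie left of 0 in both panels of CD151KO, while in CD9KO against wild type the differences run from -0.36 to 0.19.

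CD9KO against wild type shows the same genes after the loss of the other tetraspanin. Of the 9 genes 0 passed (limma, lowest adjusted p = 0.17), where 5.51% of all genes passed, and 2 had an unadjusted p under 0.05. These were Dbp (log2 -0.36, 95% interval -0.69 to -0.02, limma adjusted p = 0.17) and Usp2 (log2 0.16, 0.00 to 0.31, adjusted p = 0.19). Without wild type array 1 the Dbp difference was -0.17. Without the number 1 arrays of CD151KO and wild type, Usp2 passed (log2 0.22, limma adjusted p = 0.044). Ciart was above wild type on all 5 CD9KO arrays without passing (log2 0.19, -0.07 to 0.45, adjusted p = 0.35). It was the only 1 of the 9 whose groups did not overlap here, where 6.64% of all genes lay wholly above wild type. The intervals for Tef (-0.10 to 0.19) and Hlf (-0.27 to 0.11) left out differences as large as those of CD151KO from wild type, and that for Nfil3 was -0.12 to 0.40. Muscle markers moved in this comparison. Of 4 smooth muscle markers 3 were higher in CD9KO (Myh11, Tagln and Cnn1), with summed signals of the 4 of 7527 to 8944 in CD9KO and 6196 to 6958 in wild type. In CD151KO the sums were 6978 to 8201, also above wild type, with 0 of 4 passing and 3 at an unadjusted p under 0.05. Of 6 cardiac muscle markers 1, Myh6, was higher, with sums of 8769 to 11669 in CD9KO and 6737 to 8022 in wild type. All 6 of them had an unadjusted p under 0.05, and their median log2 difference was 0.45. Of 4 fibroblast markers 1, Pdgfra, was higher, with sums of 9818 to 11654 in CD9KO and 10073 to 10951 in wild type. The sums of CD151KO, 11056 to 11738, lay above wild type, with 0 of 4 passing and 3 at an unadjusted p under 0.05. None of these markers was listed at 0, and their part in the results was not tested. The median of the 9 was 0.04, beside 0.00 for all genes.

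CD151KO against CD9KO set the knockouts against each other, and so tested whether their differences from wild type differed. It shares the CD151KO arrays with the comparison known when the genes were chosen, so it is not independent evidence. Here 6 of the 9 passed, all 6 lower in CD151KO, where 10.1% of all genes passed and 4.12% were lower. Of these, 5 (all but Rora) lay wholly below CD9KO, where 4.06% of all genes did. The median of the 9 was -0.49, beside 0.00 for all genes. Ciart had a log2 difference of -0.80 (SE 0.11, limma adjusted p = 0.0014), Usp2 -0.61 (SE 0.07, adjusted p = 0.00029), Hlf -0.57 (SE 0.08, adjusted p = 0.0018) and Tef -0.49 (SE 0.06, adjusted p = 0.00092). Each of these passed in all 26 alternative fits. Dbp (log2 -0.50, SE 0.15, limma adjusted p = 0.047) and Rora (log2 -0.23, SE 0.07, adjusted p = 0.041) were near the threshold. The Dbp call ended in 13 of 26 alternatives: without CD151KO array 1, 2, 3 or 5, CD9KO array 1, 2, 3 or 5 or wild type array 3 (limma adjusted p = 0.06 to 0.11), and with array median centring (0.051), no filter (0.055), the mean of its probe sets (0.083) or no trend (0.051). The Rora call ended in 11 of 26: without CD151KO array 1, 2, 3 or 4 or CD9KO array 1, 2, 4 or 5 (0.052 to 0.1), with array weights (0.053), without both number 1 arrays, and with the mean of its 9 probe sets, where the difference was -0.12 (0.11). Nfil3 (log2 0.24, adjusted p = 0.19), Bhlhe40 (log2 -0.10, adjusted p = 0.43) and Bhlhe41 (log2 0.05, adjusted p = 0.46) did not pass. Without the number 1 arrays of CD151KO and wild type, Nfil3 passed (log2 0.29, limma adjusted p = 0.042) and Rora did not (-0.18, 0.074). With the mean of its 3 probe sets, Tef differed by -0.26 (limma adjusted p = 0.025). The second of these differed by -0.05, with overlap, and the third by -0.24.

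Markers of other cell types moved in the same comparison, where 5.99% of all genes were higher and 4.12% lower. All 4 of 4 neutrophil markers were higher in CD151KO than in CD9KO, S100a8 by log2 1.61 (limma adjusted p = 0.0093) and Cxcr2 by 0.74 (adjusted p = 0.0058), and their summed signal was 2957 to 10416 in CD151KO, 1385 to 1977 in CD9KO and 1959 to 5209 in wild type. Against wild type 0 of 4 passed in CD151KO, with 3 at an unadjusted p under 0.05, and none of the 4 was listed at 0. Of 6 cardiac muscle markers 1, Myh6, was lower in CD151KO (1272 ± 346) than in CD9KO (1844 ± 284), and their sums were 5979.5 to 10279 in CD151KO and 8769 to 11669 in CD9KO. Of the 6, 4 had an unadjusted p under 0.05, and their median log2 difference was -0.36. Of 4 fibroblast markers 1, Col1a2, was higher (4625.5 ± 103 in CD151KO, 3850.4 ± 488 in CD9KO), with sums of 11056 to 11738 in CD151KO and 9818 to 11654 in CD9KO. Of 10 genes that respond to glucocorticoids, 2 were lower in CD151KO than in CD9KO, Mt2 and Per1 (also a core clock gene). There 6 of the 10 had an unadjusted p under 0.05, and the median was -0.29. In CD151KO against wild type 0 of 10 passed, with 1 at an unadjusted p under 0.05 and a median of -0.06. In CD9KO against wild type 1 was higher, Sgk1, where 5.51% of all genes passed. There 3 had an unadjusted p under 0.05, and the median was 0.21. The summed signal of the 10 was 30320 to 40690 in CD151KO, 40295 to 44055 in CD9KO and 33713 to 40170 in wild type, and none was listed at 0. The brightest genes weigh most in these sums. Fkbp5, singled out after its values were seen, passed in no comparison. It measured 183, 411, 757, 1012 and 1208 on CD151KO arrays 1 to 5, 1294 to 2107 in CD9KO and 243 to 840 in wild type. Dusp1, Errfi1 and Ddit4 overlapped between all groups. The part of these lists in the results was not tested.

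Among the core clock genes, 13 of 18 were tested. In CD151KO against wild type 2 were higher, the activators Arntl and Clock, and 2 lower, the repressors Per3 and Nr1d2, where 0.778% of all genes passed. This list was made with earlier results of these data known, so these counts support nothing. The calls of Arntl and Per3 held in every alternative that tested them. That of Clock ended in 16 of 26, among them leaving out any single array but wild type array 1, and that of Nr1d2 in 7 of 26, among them leaving out wild type array 3, 4 or 5 or CD151KO array 3. With array weights Per1, Per2 and Cry1 also passed, all lower. Over the alternatives 2 to 7 of the list passed. In CD9KO against wild type 0 passed, with 1 at an unadjusted p under 0.05, where 5.51% of all genes passed. In CD151KO against CD9KO 7 passed, where 10.1% of all genes did. That comparison shares the CD151KO arrays with the one against wild type, so it is not independent evidence. Arntl was higher (log2 1.09, SE 0.15, limma adjusted p = 0.0011), and Cry1, which represses CLOCK and BMAL1, was lower, at 235.5 ± 60.8 in CD151KO and 476 ± 39.6 in CD9KO (SD, n = 5 each, adjusted p = 0.0054). Also lower were Per2 (log2 -0.77, limma adjusted p = 0.029), Cry2 (-0.40, 0.031), Per3 (-0.39, 0.0078), Nr1d2 (-0.38, 0.0015) and Per1 (-0.31, 0.014). Of these the Per2 call ended without CD9KO array 1, 3, 4 or 5 (adjusted p = 0.052 to 0.057), and the Cry2 call without CD151KO array 1, 2 or 3 or CD9KO array 1, 2, 4 or 5 (0.054 to 0.077). The median of the 13 was -0.12 in CD151KO against wild type, 0.02 in CD9KO against wild type and -0.09 in CD151KO against CD9KO, beside 0.01, 0.00 and 0.00 for all genes. Nr1d1, which codes for a REV-ERB receptor and is itself switched on at E-boxes, measured 248 to 417 in CD151KO, 273 to 419.7 in CD9KO and 308 to 412 in wild type, a log2 difference of 0.05 between the knockouts (adjusted p = 0.85).

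Of 8 genes that mouse studies place under the PAR bZIP factors, mostly in liver, brain or gut, 4 were tested (Alas1, Pdxk, Abcb1a and Abcb1b). Nr1i3 and Cyp7a1 lay below the filter. Por and Cyp2a5 had no probe set annotated with that symbol alone, so their levels are not known here. The values that follow are of the 4 tested. Their median was -0.04 in CD151KO against wild type, 0.00 in CD9KO against wild type and -0.10 in CD151KO against CD9KO. Pdxk, which codes for pyridoxal kinase and makes the active form of vitamin B6, measured 604 ± 31.0 in CD151KO, 704 ± 29.9 in CD9KO (SD, n = 5 each) and 723 ± 57.8 in wild type (n = 4). It was lower in CD151KO than in CD9KO (log2 -0.22, SE 0.05, limma adjusted p = 0.018), and in CD151KO against wild type it differed by -0.25, a call that ended in 20 of 26 alternatives. Abcb1a, an efflux pump gene, was lower in CD9KO (507 ± 64.3) than in wild type (635 ± 79.7) by -0.32 (adjusted p = 0.048), a call that ended in 17 of 26 alternatives, among them leaving out 11 single arrays (adjusted p = 0.053 to 0.13). It was higher in CD151KO (614 ± 23.1) than in CD9KO (log2 0.28, adjusted p = 0.047), which ended in 16 of 26 alternatives, among them 11 single arrays (0.053 to 0.12).

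Of 8 other clock-controlled genes, Tspan4 and Wee1 were lower in CD151KO than in CD9KO, where 4.12% of all genes were lower. The median of the 8 was -0.02 in CD151KO against wild type, 0.21 in CD9KO against wild type and -0.30 in CD151KO against CD9KO. Tspan4, itself a tetraspanin gene and rhythmic in many mouse organs, measured 1159 ± 154 in CD151KO, 1893 ± 98.8 in CD9KO and 1995 ± 91.7 in wild type (log2 -0.71 between the knockouts, SE 0.07, limma adjusted p = 0.00016). Tspan4 was low in CD151KO in the earlier results known when this list was made. The comparison with CD9KO shares those CD151KO arrays, so the count of lower genes and the p-value of Tspan4 support nothing. Tspan4 lies beside Cd151 on chromosome 7, with 1 protein-coding gene between them in assembly GRCm38.p6, and the part of the deletion itself in its level was not tested. Wee1, a kinase that holds back mitosis, measured 613 ± 125 in CD151KO, 896 ± 87.1 in CD9KO and 806 ± 119 in wild type (log2 -0.55, adjusted p = 0.013). Nampt, which makes a precursor of NAD, was higher in CD9KO (884 ± 46.5) than in wild type (682 ± 53.2) by 0.37 (adjusted p = 0.039), and this call ended without wild type array 1 or 3, CD151KO array 3 or CD9KO array 2, 3, 4 or 5 (0.051 to 0.1).

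**Figure D4:**
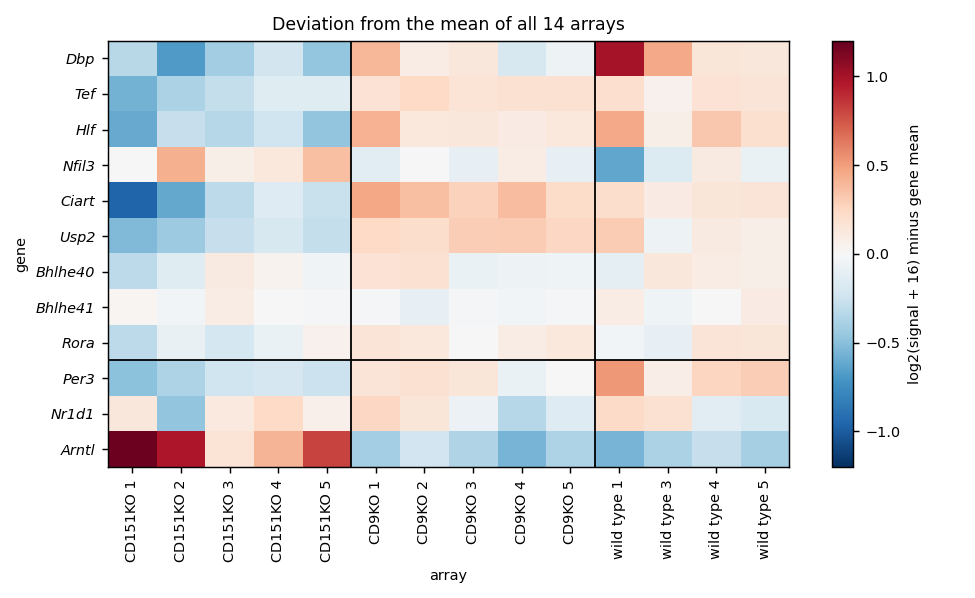
Deviation of log2(signal + 16) from each gene's mean over the 14 arrays (colour, red above and blue below), for the 9 clock output genes and, under the line, Per3, Nr1d1 and Arntl, with CD151KO, CD9KO and wild type arrays from left to right. CD151KO arrays 1 and 2 are the reddest for Arntl (signals of 244 and 209) and the bluest for Ciart (199 and 257).

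Within CD151KO the arrays were not alike. Arntl, the gene of BMAL1, had 244, 209, 113, 137 and 185 on arrays 1 to 5, against 70.8, 82.1, 73.5, 62.3 and 73.2 in CD9KO and 62.3, 72.6, 78.9 and 71.1 in wild type. Array 1 of CD151KO, highest in Arntl, was lowest in Tef, Hlf, Ciart and Usp2, but not in Dbp, which was lowest on array 2. Deviations from the group means over the 14 arrays describe which genes varied together, with most weight on the group that spread most. They share the arrays and their quality, and the 36 pairs among the 9 genes had r from -0.853 to 0.908, with a median of 0.27. The highest was that of Tef and Ciart (Pearson r = 0.908, Spearman rho = 0.758), which was 0.75 without the number 1 arrays of CD151KO and wild type. Usp2 varied with Tef (r = 0.785) and with Ciart (0.738). The lowest was that of Dbp and Nfil3 (r = -0.853, rho = -0.811), which was -0.699 without the number 1 arrays. Dbp varied with Nr1d1 (r = 0.806, and 0.908 without those arrays), but little with Tef (0.116). Arntl varied against Ciart (r = -0.747, and -0.537 without those arrays).

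**Figure D5:**
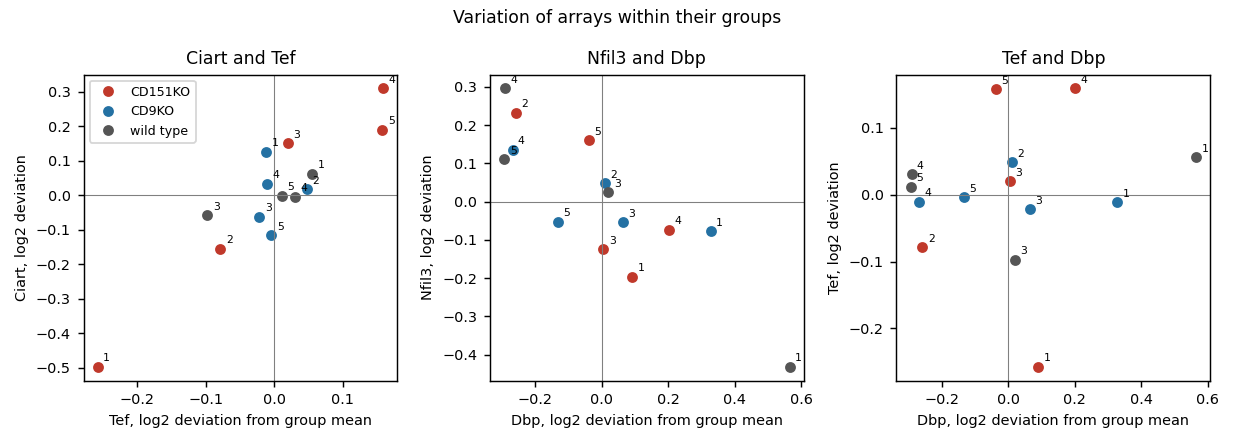
Log2 deviation of each array from the mean of its own group, in CD151KO, CD9KO and wild type, with array numbers beside the points: Ciart over Tef (r = 0.908), Nfil3 over Dbp (r = -0.853) and Tef over Dbp (r = 0.116). CD151KO array 1 is the lowest point of the first panel and wild type array 1 that of the second.

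The genes whose levels over the 14 arrays were most like those of Dbp, among all genes tested, were Mbd2 (Pearson r = 0.907), Myo1c (0.879), Per3 (0.879), Cracr2b (0.87) and Akap2 (0.868). The most opposite were Clock (-0.915), Nfil3 (-0.905), Leo1 (-0.895), 0610009B22Rik (-0.892) and Ahcyl2 (-0.888). These values describe likeness, and part of it lies between the groups: within groups they were 0.546 to 0.788 for the first 5 and -0.6 to -0.853 for the others. Without the arrays farthest from the median of Dbp, wild type array 1 and CD151KO array 2, they were 0.8 to 0.877 and -0.748 to -0.836.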

How the data were processed

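Total RNA of whole lung in 14 samples (CD151KO 5, CD9KO 5, wild type 4) was hybridised to 1-colour Affymetrix arrays, per the labels. The deposited values are intensities on a linear scale, 1 per probe set and array, which the authors normalized, per the labels. Per the submitters' processing notes, MAS5 and Affymetrix Expression Console were used. The sources used here do not say which of these gave the values, on which low signals depend. The number of arrays limits precision.

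Gene symbols came from the platform's annotation (34958 with 1 symbol, 932 with several, 9211 with none), and 34754 of those with 1 symbol matched a gene table of assembly GRCm38.p6 by Entrez ID. A gene was its probe set with the highest mean. Genes with a mean log2(signal + 16) below 6.12, the 40th percentile of probe sets other than controls, were left out (5208), and 12985 were tested. Groups and replicate numbers came from the sample titles. With limma 3.58.1 (R 4.3.3), 1 linear model with a mean for each of the 3 groups was fitted over the 14 arrays (eBayes with trend, 11 residual degrees of freedom), two-sided, with Benjamini-Hochberg adjustment over all 12985 genes and a threshold of 0.05.

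The genes, lists and alternatives were chosen with earlier results of these data known. Named were the 9 genes, Cd151 and Cd9, list genes that passed, Arntl, Per3 and Nr1d1, and the 5 genes most and the 5 least correlated with Dbp; other names were chosen after their values were seen. On simulated data of the 12985 genes, 35.8%, 86.3% and 97.3% of genes changed by 0.2, 0.4 and 0.8 (log2) were recovered for CD151KO against wild type, and 40.6%, 85.7% and 97.3% for CD151KO against CD9KO. The simulated noise was independent between arrays and equal in spread across groups, without the order of arrays seen in these data. These shares are averages over all genes and do not give the recovery of the 9. The alternatives were other pseudocounts, normalization, filters, summaries of probe sets, variance settings, weights on arrays, a block for the replicate number and leaving out arrays.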

Additional observations from a re-analysis of the deposited data

Results flagged for a closer look

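Each group of arrays was checked for a single array far from its nearest neighbour, for each of the 23 probe sets (69 checks, of which chance marks about 1 in 20). Of the 69 checks 2 marked an array, a share below that of chance, so the marks are a description only. In CD9KO, Tef was 3104 on array 2, with the nearest array at 2993 and the lowest at 2957, a narrow range. In CD9KO, Hlf was 409 on array 1, with the nearest array at 332 and the lowest at 323.5. The second probe set of Hlf also had its highest CD9KO value on array 1 (352, the others 298 to 339).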

How the results depend on the processing

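Of the 9 genes, 5 passed in CD151KO against wild type, 1 with only the compared groups in the fit and 3 to 5 when each array was left out in turn. In CD9KO against wild type 0 passed, 1 (Usp2) with array weights, 1 (Usp2) without the number 1 arrays of CD151KO and wild type, and 0 to 0 when each array was left out. In CD151KO against CD9KO 6 passed, and 4 to 6 in the alternatives and when each array was left out; the 6 without the number 1 arrays were 5 lower and Nfil3 higher. Of all genes, 101 passed in CD151KO against wild type, 39 with only the compared groups, 335 with array weights, 45 without the number 1 arrays and 24 to 98 with an array left out. For CD9KO against wild type the counts were 715, 1090 with array weights, 1591 with the replicate block, 405 without the number 1 arrays and 158 to 866 with an array left out, and for CD151KO against CD9KO 1313 and 682 to 1939. The causes were not tested. The labels do not say what same-numbered arrays share. The r of their deviations was -0.13 to 0.592, over 0.1 in 6 of 13 pairs. Between CD151KO and wild type it was 0.592 for number 1, 0.451 for number 4, 0.263 for number 5 and -0.13 for number 3. Principal component 1 rose with the number in both groups, from -17.2 to 2.46 in CD151KO and -18.5 to 1.48 in wild type. The part of this order in the results was not tested. With the replicate block the Ciart call in CD151KO against wild type ended (log2 -0.60). None of the 75 differences recomputed turned its direction while called. With the mean of all its probe sets, Tef had a difference of -0.15 in CD9KO against wild type (0.04 with 1 probe set), without a call in either. The filter at the 60th percentile left out Nfil3, Bhlhe41 and Arntl. Nfil3 and Bhlhe41 lie near the filter, where signal over background limits the fold.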

Other observations

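The probe set of Tef that split the CD9KO arrays was singled out after its values were seen. Over the 14 arrays it was only loosely like the representative probe set of Tef (Pearson r = 0.388) and not like the third (-0.003). Among 27021 probe sets above the filter, those most like it were probe sets of Clip1 (0.968), Dusp7 (0.962), Resf1 (0.952) and Bach1 (0.94). The values are a description.

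Dbp lies on chromosome 7, as does Cd151, with 1019 protein-coding genes between them in the order of assembly GRCm38.p6. Bhlhe40 and Bhlhe41 lie on chromosome 6, as does Cd9, each with 200 protein-coding genes between. The other 6 genes lie on chromosomes that carry neither Cd151 nor Cd9.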
